A study of Danio rerio with 23 samples.

Results

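The embryonic hemoglobin genes of zebrafish were followed in retinae after light-induced retinal damage (LIRD) and in control retinae (CTRL). Their rows were chosen by name, as every gene whose zebrafish symbol begins with hbae (embryonic alpha-type subunits) or hbbe (embryonic beta-type subunits). The rule found 7 of the 25281 genes in the count table, namely hbae1.1, hbae1.2, hbae1.3, hbae3, hbae4, hbae5 and hbbe3. Poly(A)-selected RNA was sequenced from 9 CTRL and 8 LIRD libraries with a column in the count table. A further 6 labelled samples have no column there and were not analysed. Descriptions of the fish differ between sources. Larvae exposed at 4 dpf to light of 50000 lux for 3.5 h and then kept in the dark for 48 h, with 50 animals treated as a group, are described in the methods. Adult fish exposed to 15000 lux for 24 h and dissected right after the exposure are described in the sample labels. Wild-type TU fish and a fli reporter line are both named in the methods, and which of them gave the sequenced retinae is not given in the sources used here. CTRL animals received no damaging light, and no drug was given to either group. The names LIRD and CTRL follow the study, and a library is called by its condition and replicate number. The labels call the replicates biological, and no source ties a replicate number to a clutch or a day.

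Hemoglobin carries oxygen in red blood cells. Each molecule is built from alpha-type and beta-type subunits, and each subunit holds a heme group, an iron-containing ring made in the same cells. Zebrafish, like mammals, use one set of subunit genes in the embryo and larva and another set in the adult. Fish red cells keep their nucleus and go on to carry mRNA in the circulation, so that any tissue with blood vessels, the retina included, brings hemoglobin mRNA into a bulk sample. Hemoglobin transcripts have also been described outside the erythroid lineage, including in neurons of mammals. Oxygen transport was one of the less explored processes that the study reported as enriched after light damage. In that category the study named hbae1.3 and hbae3, together with hbbe1.2 and hbbe1.3, among the genes with the strongest increase. For hbae3 it also reported RT-qPCR (quantitative PCR on reverse-transcribed RNA) with the same direction of change as its sequencing.

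The embryonic globin genes lie in clusters in which alpha-type and beta-type genes alternate. In the RefSeq annotation the order was hbbe1.1, hbae1.1, hbbe1.2, hbae1.2, hbbe1.3, hbae1.3 and hbae3. The genes hbae4 and hbbe3 were direct neighbours in a further cluster, as were hbbe2 and hbae5. RefSeq names 11 hbae and hbbe genes. Identifiers of 7 were matched to the table, while hbbe1.1, hbbe1.2, hbbe1.3 and hbbe2 matched no row by name. The copies hbae1.1, hbae1.2 and hbae1.3 resemble each other closely, and how reads that fit several copies were assigned is not given in the sources used here, so that the division of counts between the copies is uncertain.

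The libraries held 70932504 to 144932681 counts in CTRL (median 105906004) and 97506021 to 150347385 counts in LIRD (median 110077567). The hbae and hbbe genes together took 0.0335% to 0.0592% of all counts in CTRL libraries and 0.0546% to 0.140% in LIRD libraries. The retina was well represented, since GNAT2 (cone transducin, ENSDARG00000042529) had 2246 ± 445 CPM in CTRL and 1968 ± 205 CPM in LIRD. Libraries were not alike within either condition. Among CTRL pairs, the median chi-square per gene of a comparison of counts was at most 58.3 (CTRL 6 and CTRL 10). Between LIRD 1, 2, 4 and 9 on one side and LIRD 5, 6, 10 and 11 on the other, the median chi-square per gene of a comparison of counts was 44.3 to 136, against at most 33.2 among the former 4 and at most 13.2 among the latter 4. The TMM factors, which correct for composition, were 0.824 to 0.941 in the former and 1.047 to 1.16 in the latter, and 0.908 to 1.14 in CTRL. They were lowest in LIRD 4 (0.824) and LIRD 1 (0.840), the libraries that also had the largest shares of embryonic globin counts before any such correction (0.136% and 0.140%), and the part of composition in these shares was not tested. LIRD 5 and LIRD 11 (median chi-square 0.85) and CTRL 3 and CTRL 11 (1.83) were closer than any other pair within a condition (6.16 or more), yet above the 0.455 that counting error alone gives, and were kept as separate samples. From the order of the index numbers in the library names, the libraries were divided here into 2 series. The first holds CTRL 1, CTRL 2, LIRD 1 and LIRD 2, whose index numbers alternate between the conditions. The second holds all others, with every CTRL library before every LIRD library. No label names these series, and whether they are batches is not given in the sources used here.

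Of the 6 genes tested, hbae3 (ENSDARG00000079305), an embryonic alpha-type subunit, had the largest log2 fold change in the main test. Its level, in counts scaled to a library of 1000000 (CPM), was 125.6 CPM in the lowest, 183 CPM in the median and 265 CPM in the highest CTRL library. In LIRD the lowest library had 189.9 CPM, the median was 270.5 CPM and the highest had 838 CPM. Every LIRD library thus lay above the CTRL median, and 4 of 8 lay above all CTRL libraries, namely LIRD 1 (838 CPM), LIRD 4 (588 CPM), LIRD 9 (366 CPM) and LIRD 2 (276 CPM). These are the 4 LIRD libraries that stood apart from the other 4 over all genes and had TMM factors of 0.824 to 0.941, and the part of that split in the hbae3 values was not tested. The other 4 LIRD libraries overlapped with the upper part of the CTRL range, and LIRD 6 (264.9 CPM) was level with CTRL 10 (265.2 CPM), the highest control. The means were 181 ± 42.7 CPM in CTRL (SD, n = 9) and 369.8 ± 228 CPM in LIRD (SD, n = 8). On the log2 scale LIRD exceeded CTRL by 1.03 (SE 0.27, unadjusted p = 0.00118, FDR = 0.26, edgeR quasi-likelihood test over 22503 genes). A gene was called at an FDR under 0.05 together with a difference of more than 1.5-fold, and by this rule hbae3 was not called. In DESeq2, the tool of the study, its log2 fold change was 1.02 and its FDR 0.033, and it was called. In a bulk sample, a larger number of red cells and more hemoglobin mRNA per cell cannot be told apart.

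**Figure D1:**
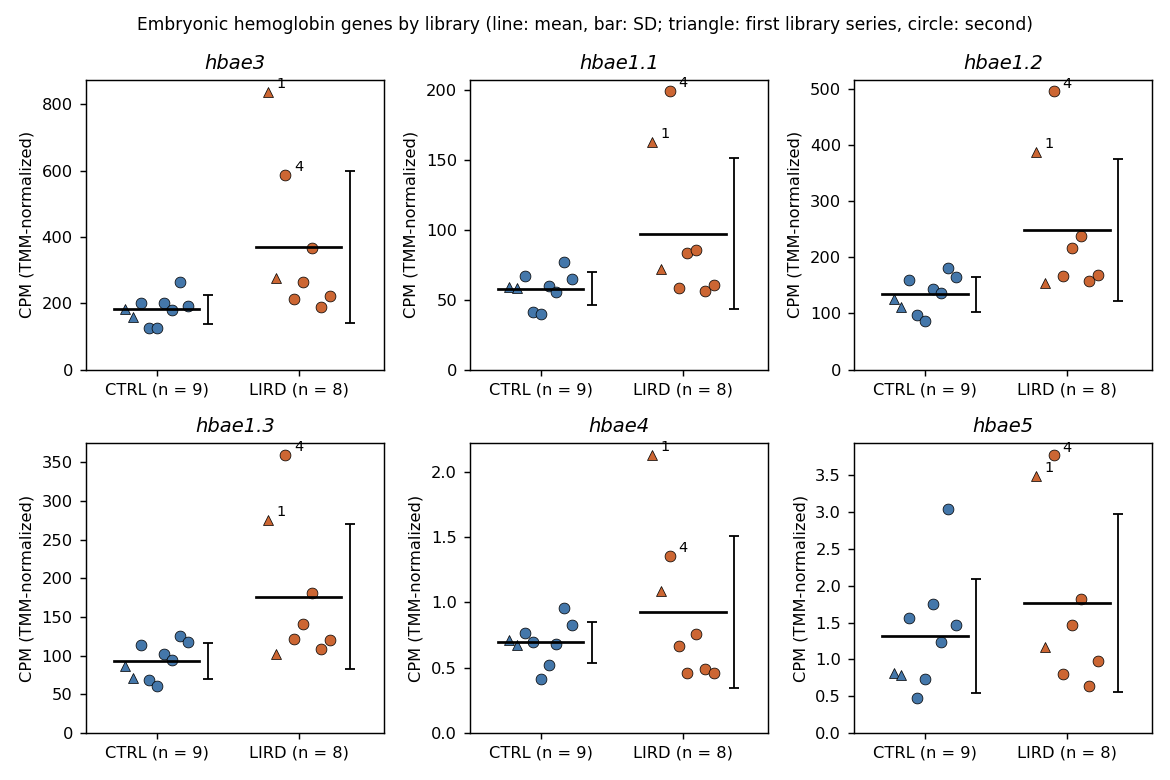
TMM-normalized CPM (counts scaled to a library of 1000000 counts, y axis, a separate scale for each gene) of 6 embryonic alpha-type hemoglobin genes in 9 CTRL and 8 LIRD libraries, with 1 point per library, a line at the mean and a bar of 1 SD; triangles are the first library series and circles the second. For hbae3, hbae1.1, hbae1.2 and hbae1.3, LIRD 1 and LIRD 4 stand well above the other LIRD libraries, a further 2 lie above every control (LIRD 2 and LIRD 9 for hbae3, LIRD 6 and LIRD 9 for the hbae1 copies), and the other 4 lie within the CTRL range.

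The 3 hbae1 copies, which encode further embryonic alpha-type subunits, had the same arrangement. For hbae1.2 (ENSDARG00000088330), CTRL libraries had 87.0 CPM at the lowest, 136 CPM at the median and 180.1 CPM at the highest. LIRD libraries had 154 CPM, 192 CPM and 496 CPM at the same points. The CTRL median was exceeded in all 8 LIRD libraries, and the highest CTRL value in 4 of them, here LIRD 1, 4, 6 and 9. The mean was 134 ± 31.6 CPM in CTRL and 248 ± 127 CPM in LIRD, a log2 fold change of 0.89 (SE 0.23; FDR = 0.27).

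For hbae1.3 (ENSDARG00000089124), the lowest, median and highest values were 61.2, 94.4 and 125 CPM in CTRL and 102, 132 and 360.1 CPM in LIRD. The same 4 LIRD libraries exceeded every CTRL library, and none of the 8 lay below the CTRL median. The log2 fold change was 0.92 (SE 0.24; FDR = 0.28) in edgeR.

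For hbae1.1 (ENSDARG00000089475), the lowest, median and highest values were 39.6, 59.2 and 77.3 CPM in CTRL and 56.5, 77.6 and 199 CPM in LIRD. The separation was narrower here, since the CTRL median was exceeded in 6 of 8 LIRD libraries, although LIRD 1, 4, 6 and 9 were again above every control. The log2 fold change was 0.75 (SE 0.24; FDR = 0.42). In DESeq2, hbae1.2 (log2 fold change 0.88, FDR = 0.044) and hbae1.3 (0.91, FDR = 0.046) were called, while hbae1.1 was not (0.74, FDR = 0.17). Added up as 1 gene, the 3 copies had a log2 fold change of 0.87 (SE 0.24, FDR = 0.31 in edgeR). This sum sets aside how counts were divided between the 3 rows, but not any shared reads left out or counted more than once.

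The remaining alpha-type genes gave few counts. hbae4 (ENSDARG00000045144), which neighbours hbbe3, had 48 to 269 counts per library. Its level was 0.411, 0.694 and 0.953 CPM at the lowest, median and highest CTRL library and 0.456, 0.709 and 2.13 CPM at the same points in LIRD. The medians were thus close, and only LIRD 1, LIRD 4 and LIRD 2 exceeded the controls. The log2 fold change of 0.42 (SE 0.29; FDR = 0.70) was within the spread between libraries.

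hbae5 (ENSDARG00000045142) had 55 to 441 counts per library. CTRL libraries ranged from 0.471 to 3.04 CPM around a median of 1.24 CPM, and LIRD libraries from 0.639 to 3.77 CPM around a median of 1.31 CPM. The groups overlapped almost fully, with 2 LIRD libraries (LIRD 1 and LIRD 4) above all CTRL libraries. Its log2 fold change was 0.42 (SE 0.39; FDR = 0.72). The only beta-type gene found by name, hbbe3 (ENSDARG00000038147), was at the limit of detection, with 60 counts over all 17 libraries. It had 0 counts in 3 CTRL libraries and at most 4 in any CTRL library. In LIRD it had 2 to 6 counts in 7 libraries and 20 counts in LIRD 9. Counts of at most 3 were treated as not detected, as in 12 of the 17 libraries, and the gene did not pass the filter on low counts and was not tested in the main fit.

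Over the 6 genes tested, 0 were called by edgeR, where the share of all tested genes called was 0.0356% in the upward direction and 0.04% in either. At an unadjusted p under 0.05, 4 of the 6 were higher in LIRD, against 4.9% of all tested genes higher at that level. limma-voom called 0 of the 6, against 0.04% of all genes, with 4 at an unadjusted p under 0.05, against 7.01% of all genes in either direction. DESeq2 called 3 of the 7, against 0.247% of its tested genes called upward. Every LIRD library lay above the CTRL median for 3 of the 6 genes, compared with 1.49% of all tested genes. At least 4 LIRD libraries lay above every CTRL library for 4 of the 6 genes, compared with 13.9% of all tested genes. For 0 of the 6 did every LIRD library lie above every CTRL library, which held for 0.0622% of all tested genes. The 4 genes are neighbours and were measured in the same libraries, so they do not count as independent observations.

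LIRD libraries varied more than CTRL libraries. For hbae3, hbae1.1, hbae1.2 and hbae1.3 the coefficient of variation was 20.4% to 24.7% in CTRL and 51.1% to 61.8% in LIRD. LIRD 1 and LIRD 4 carried much of this spread. Summed over all hbae and hbbe genes, LIRD 1 had 1671 CPM and LIRD 4 had 1648 CPM, LIRD 9 had 874 CPM, and the other 5 LIRD libraries had 514 to 707 CPM. CTRL libraries had 314 to 652 CPM in sum. Without LIRD 1 the log2 fold change of hbae3 was 0.74, and without LIRD 4 those of hbae1.1, hbae1.2 and hbae1.3 were 0.51, 0.67 and 0.68. Over all single libraries left out, the 4 genes had log2 fold changes between 0.51 and 1.12, and none was called. For the sparse genes the dependence was greater, since without LIRD 1 hbae4 had 0.11 and without LIRD 4 hbae5 had 0.16.

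The library series gave different sizes of the difference. In the first series (2 CTRL and 2 LIRD libraries), hbae3 had 160 and 183 CPM in CTRL and 276 and 838 CPM in LIRD, a log2 fold change of 1.73 (SE 0.51; FDR = 0.063). In the second series (7 CTRL and 6 LIRD libraries), its medians were 191 and 244 CPM and its log2 fold change 0.74 (SE 0.26; FDR = 0.77). hbae1.1, hbae1.2 and hbae1.3 had log2 fold changes of 1.03, 1.22 and 1.28 in the first series and 0.65, 0.79 and 0.82 in the second. hbae4 and hbae5 had 1.25 and 1.58 in the first series but 0.0013 and 0.10 in the second, so that both values were near 0 without the first series. Single libraries of the second series also moved hbae5, whose pooled log2 fold change of 0.42 became 0.16 without LIRD 4 and 0.68 without CTRL 10. The difference between the series was not tested, and with series as a covariate hbae3 had a log2 fold change of 0.96 (FDR = 0.28).

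**Figure D2:**
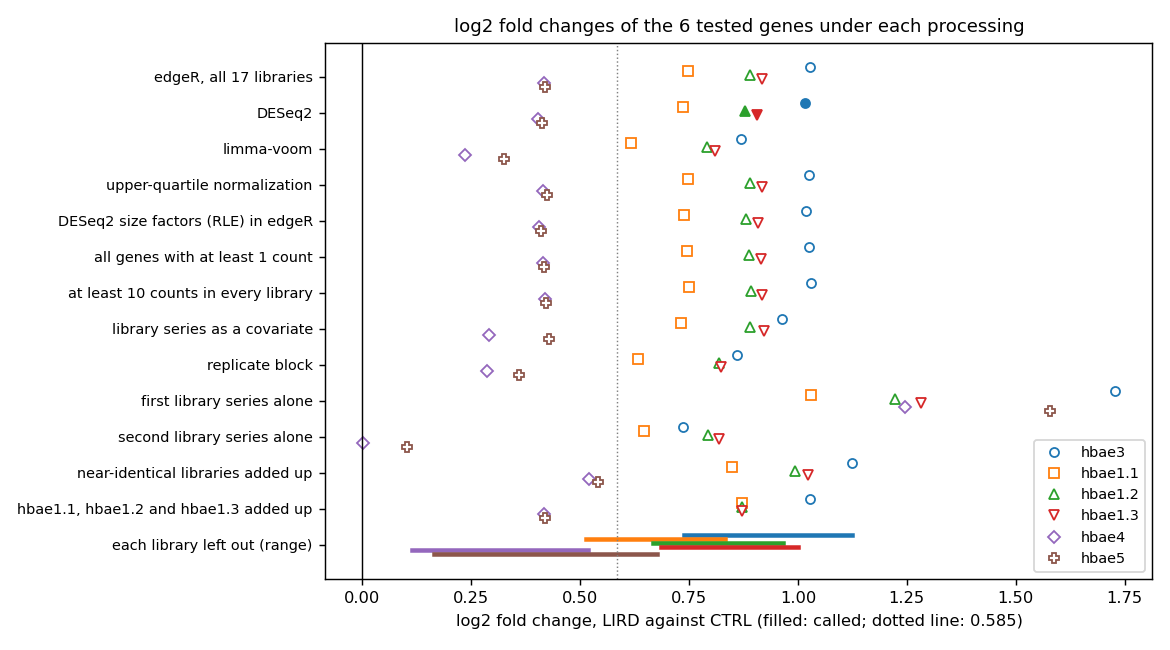
Log2 fold changes of LIRD against CTRL (x axis) for 6 embryonic alpha-type hemoglobin genes under each way of processing the counts (y axis); filled symbols were called, the dotted line marks a 1.5-fold difference, and bars at the bottom give the range over single libraries left out. The 4 abundant genes stayed between 0.51 and 1.73 in all settings shown and were called only in DESeq2 (hbae3, hbae1.2 and hbae1.3), whereas hbae4 and hbae5 lay between 0.0013 and 1.58.

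The make-up of the embryonic globin counts was compared from library to library. Counts were not divided by transcript length, so these values compare libraries and not genes. hbae3, hbae1.1, hbae1.2 and hbae1.3 held 99.4% to 99.8% of the counts of all hbae and hbbe genes in every library. For each count of the hbae1 copies there were 0.552 to 0.694 counts of hbae3 in CTRL. In LIRD the ratio was 1.01 in LIRD 1 and 0.842 in LIRD 2, the 2 LIRD libraries of the first series, and 0.557 to 0.726 in the other 6. LIRD 4, which had the highest hbae1 levels, had 0.557, at the lower end of the CTRL range. LIRD 1 and LIRD 4 were thus both rich in embryonic globin counts but differed in the proportion of hbae3.

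Within the hbae1 copies, the share of hbae1.1 was 19.7% to 24.1% in the first series and 16.8% to 21.1% in the second. In the second series it was 18.7% to 21.1% in CTRL and 16.8% to 18.9% in LIRD, ranges that overlapped only at their ends. In the first series it was 21.8% and 24.1% in CTRL and 19.7% and 21.97% in LIRD. The share of hbae1.2 was nearly constant at 46.1% to 49.0% over all libraries, and that of hbae1.3 was 29.6% to 35.98%. Relative to hbae3, which had the largest log2 fold change of the genes tested, the sparse genes had lower medians in LIRD. Per 1000 counts of hbae3, CTRL libraries had a median of 3.80 counts of hbae4 (2.60 to 5.51) and LIRD libraries 2.42 (1.73 to 3.95). For hbae5 the medians were 6.86 (3.74 to 11.5) and 4.30 (3.36 to 6.42). These ratios overlapped between conditions and were given no test. They rest on the same counts as the log2 fold changes and are not a separate result.

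**Figure D3:**
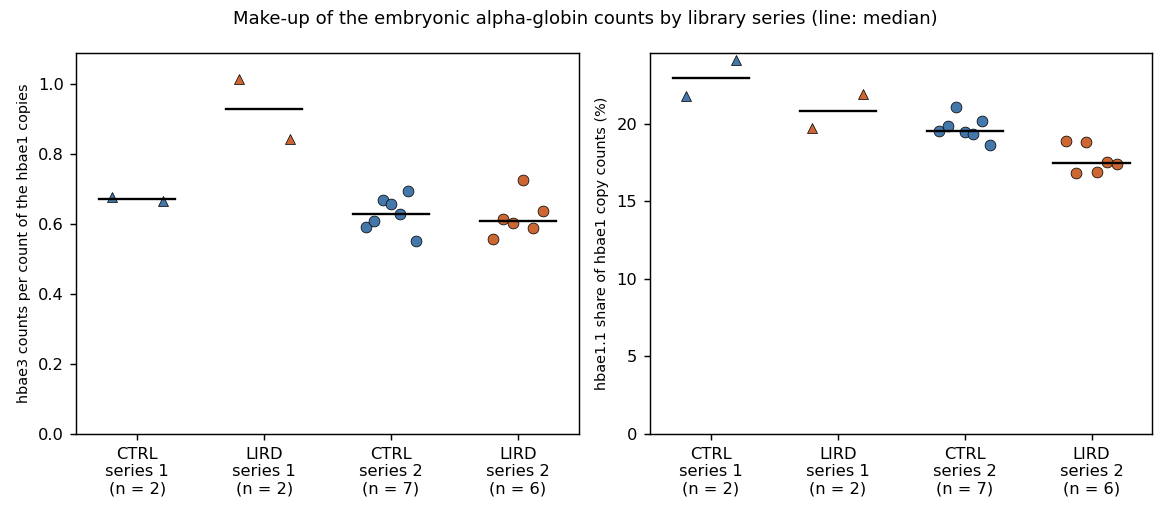
Counts of hbae3 per count of the 3 hbae1 copies (left) and share of hbae1.1 among the counts of the copies in percent (right), by library series and condition, with 1 point per library and a line at the median. The LIRD libraries of the first series (0.842 and 1.01) lie above all others on the left, and in the second series most LIRD libraries lie below the CTRL libraries on the right.

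Beta-type subunits pair with the alpha-type subunits in the protein. Apart from hbbe3, 7 rows of the table carry the human symbol HBE1 and no zebrafish name. This symbol stands for a beta-type subunit, does not tell embryonic from adult zebrafish genes, and does not say which row is hbbe1.1, hbbe1.2, hbbe1.3 or hbbe2. Of the 7 rows, 4 had at least 4140 counts in every library. ENSDARG00000087390 had 51.1, 78.2 and 146 CPM at the lowest, median and highest CTRL library and 79.5, 134 and 394 CPM in LIRD. The CTRL median was exceeded in all 8 LIRD libraries and the highest CTRL value in LIRD 1, 2, 4 and 9. This row had a log2 fold change of 1.17 (SE 0.33; FDR = 0.30 in edgeR and 0.051 in DESeq2), the largest among the hemoglobin rows tested.

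ENSDARG00000115405 had 63.7 ± 22.6 CPM in CTRL and 137 ± 101 CPM in LIRD, a log2 fold change of 1.103 (SE 0.34; FDR = 0.40). ENSDARG00000113599 had 272 ± 72.2 and 476 ± 342 CPM, a log2 fold change of 0.81 (SE 0.32; FDR = 0.56), and only 4 of 8 LIRD libraries lay above its CTRL median. ENSDARG00000045143 had 62.7 ± 14.1 and 81.8 ± 43.1 CPM, a log2 fold change of 0.38 (SE 0.24; FDR = 0.70). LIRD 1 was the highest library for all 4 rows, and CTRL 10 the highest control. None of the 4 was called by edgeR or DESeq2, beside 0.04% and 0.315% of all genes in either direction. All 4 had log2 fold changes of 0.10 to 0.82 in the second library series. The other 3 rows named HBE1 had at most 5 counts in any library.

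Relative to the alpha-type counts, the HBE1 counts also differed between libraries. For each alpha-type count there were 0.827 to 1.199 HBE1 counts in CTRL, 1.23 and 1.39 in the LIRD libraries of the first series, and 0.645 to 1.09 in the other 6 LIRD libraries. Within the HBE1 rows, ENSDARG00000045143 took 12.1% to 14.4% of the counts in CTRL and 7.85% to 12.2% in LIRD, again ranges that met only at their ends. The share of ENSDARG00000087390 was 13.6% to 21.2% in CTRL and 16.8% to 24.5% in LIRD.

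Adult alpha-type subunits were almost absent. hbaa1 (ENSDARG00000097011) had 0 to 17 counts per library and hbaa2 (ENSDARG00000069735) had 0 to 4, where hbae3 had 12847 to 105837 counts. Of the 17 libraries, 9 did not exceed the floor of 3 counts for hbaa1 and 16 did not for hbaa2. The labels name adult fish, and these are the values of the genes that mark adult blood. No row matched hbba1 or the other adult beta-type names searched for.

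**Figure D4:**
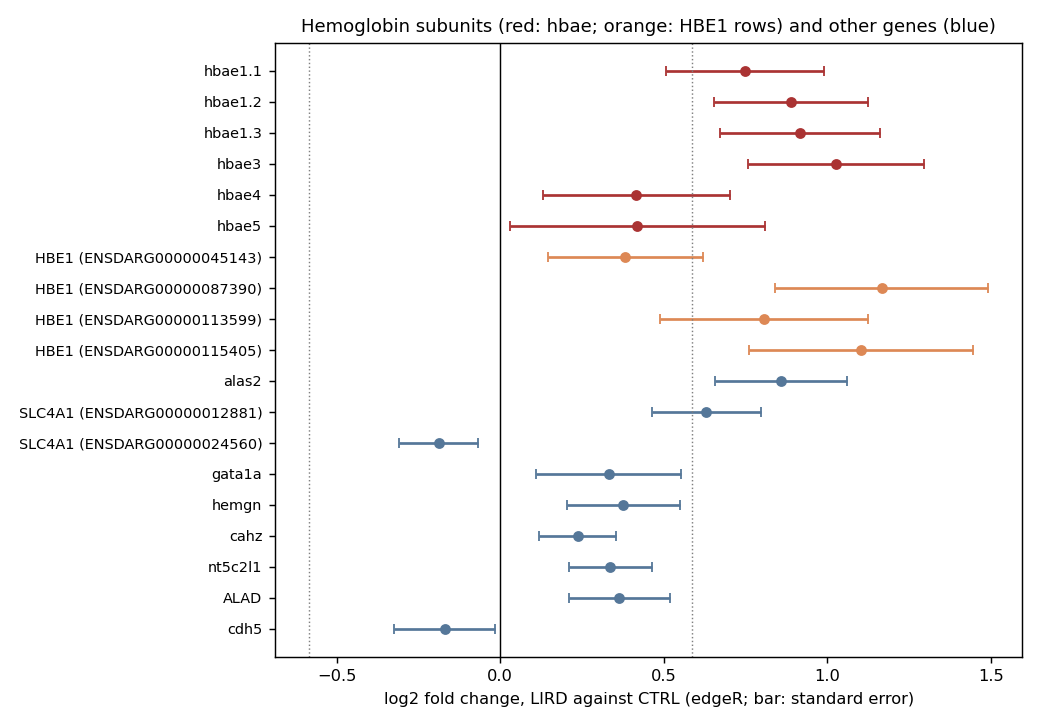
Log2 fold changes of LIRD against CTRL from edgeR (x axis) with bars of 1 standard error, for the hbae genes (red), the tested rows named HBE1 (orange) and selected red cell and vessel genes (blue); dotted lines mark a 1.5-fold difference in each direction. The hemoglobin rows lie between 0.38 and 1.17. Of the blue genes drawn, alas2 at 0.86 and SLC4A1 ENSDARG00000012881 at 0.63 are the highest. The other SLC4A1 row at -0.19 and cdh5 at -0.17 lie slightly below 0. PLEK2 (1.23), znfl2a (0.52) and ANK1 ENSDARG00000059093 (-0.30), also among the red cell genes with the smallest p, are not drawn.

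The genes whose levels followed hbae3 most closely from library to library were sought among 19161 genes with a mean over 1 CPM. The Pearson r of log2 CPM with hbae3 over the 17 libraries had a median of 0.0045 over these genes, with 5% of genes under -0.78 and 5% over 0.73, and only 12 genes were over 0.9. The 8 highest were hbae1.1 (0.96), HBE1 ENSDARG00000087390 (0.95), hbae1.2 (0.95), hbae1.3 (0.94), ENSDARG00000069381 (0.94, a gene with a clone-based symbol only), c1ql1 (0.93), HBE1 ENSDARG00000115405 (0.93) and zgc:172053 (0.92). Thus 5 of the 8 were other hemoglobin rows. The other 2 abundant HBE1 rows came later, ENSDARG00000113599 in place 9 with 0.92 and ENSDARG00000045143 in place 17 with 0.89. Of the non-globin genes, c1ql1, which encodes a secreted protein of the C1q family, had 6.47 ± 1.91 CPM in CTRL and 11.96 ± 5.75 CPM in LIRD. ENSDARG00000069381 had 1.55 ± 0.671 and 8.67 ± 10.4 CPM, and zgc:172053 had 2.69 ± 1.37 and 23.6 ± 32.7 CPM. For both, LIRD 4 was the highest LIRD library and LIRD 10 the lowest, and LIRD 10 was also the lowest for hbae3.

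In 10 relations computed for hbae3 (permutation tests with 100000 resamples, two-sided, Benjamini-Hochberg over the 10), the hbae1 copies followed it with r of 0.94 to 0.96 and rho of 0.88 to 0.92 (adjusted permutation p = 2.5e-05 for each r). Without LIRD 1 and LIRD 4, the libraries farthest from the median, r was still 0.91 to 0.93. Within CTRL alone (n = 9) r was 0.92 to 0.96, and within LIRD alone (n = 8) it was 0.91 to 0.94. hbae5 had r = 0.82 and rho = 0.77 (adjusted permutation p = 0.0001 and 0.0009), 0.69 without the 2 libraries, and 0.93 within CTRL and 0.96 within LIRD, so that it followed hbae3 more closely within each condition than over both. The resamples shuffled all 17 libraries freely, ignoring condition, the split within LIRD and the near-identical pairs. Of the 19161 genes, 5% had r over 0.73 and 5% under -0.78. In the order of r, hbae5 came in place 109 and SLC4A1 ENSDARG00000012881 in place 304. For each of the 10 relations, a small p alone thus does not mark a tie particular to hbae3.

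The rows of the erythroid list did not share one direction, and the part of cells outside blood in their values was not tested. Of the 26 erythroid rows with a mean over 1 CPM, 15 had a positive and 11 a negative r with hbae3, from -0.84 (ANK1 ENSDARG00000074777) to 0.91 (cahz), with a median of 0.17, and add2, which encodes an adducin of the membrane skeleton, had -0.77. In CTRL this ANK1 row and add2 had means of 53.8 and 92.2 CPM, where alas2 had 12.3 CPM. ELAVL3, of the list of retina markers, also had an r of -0.84. Among the positive rows, nt5c2l1, hemgn, znfl2a and blf had 0.87, 0.82, 0.81 and 0.73. cahz, the carbonic anhydrase of zebrafish red cells, had r = 0.91 and rho = 0.80 with hbae3 (adjusted permutation p = 2.5e-05 and 0.000575), 0.76 without LIRD 1 and LIRD 4, 0.87 within CTRL and 0.94 within LIRD. alas2, the erythroid enzyme of the first step of heme synthesis, had r = 0.87 and rho = 0.76 (adjusted permutation p = 8e-05 and 0.00102), 0.72 without those 2 libraries, and 0.60 and 0.86 within the conditions. SLC4A1, the anion exchanger of the red cell membrane, is the symbol of 2 rows. ENSDARG00000012881 had r = 0.78 and rho = 0.69 (adjusted permutation p = 0.000357 and 0.00446), 0.56 without the 2 libraries. ENSDARG00000024560 went the other way, with r = -0.74 and rho = -0.60 (adjusted permutation p = 0.000938 and 0.0146), -0.60 without the 2 libraries. hbaa1, at its few counts, had r = 0.52 and rho = 0.39 (adjusted permutation p = 0.0319 and 0.12), which fell to 0.29 without LIRD 1 and LIRD 4 and was -0.069 within CTRL, so that the relation rested on those libraries. cdh5, the cadherin of blood vessel walls, had r = -0.77 and rho = -0.52 (adjusted permutation p = 0.00101 and 0.0362), and -0.34 without the 2 libraries. It was the lowest of 19 endothelial rows, of which 11 were negative and 8 positive, up to 0.68 for CLDN5 ENSDARG00000014059, with a median of -0.12. In the second library series alone (n = 13) r was 0.97 to 0.98 for the hbae1 copies, 0.80 for hbae5, 0.88 for cahz, 0.81 for alas2, 0.69 and -0.58 for the SLC4A1 rows, 0.26 for hbaa1 and -0.65 for cdh5. The first series holds too few libraries for a value of its own.

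**Figure D5:**
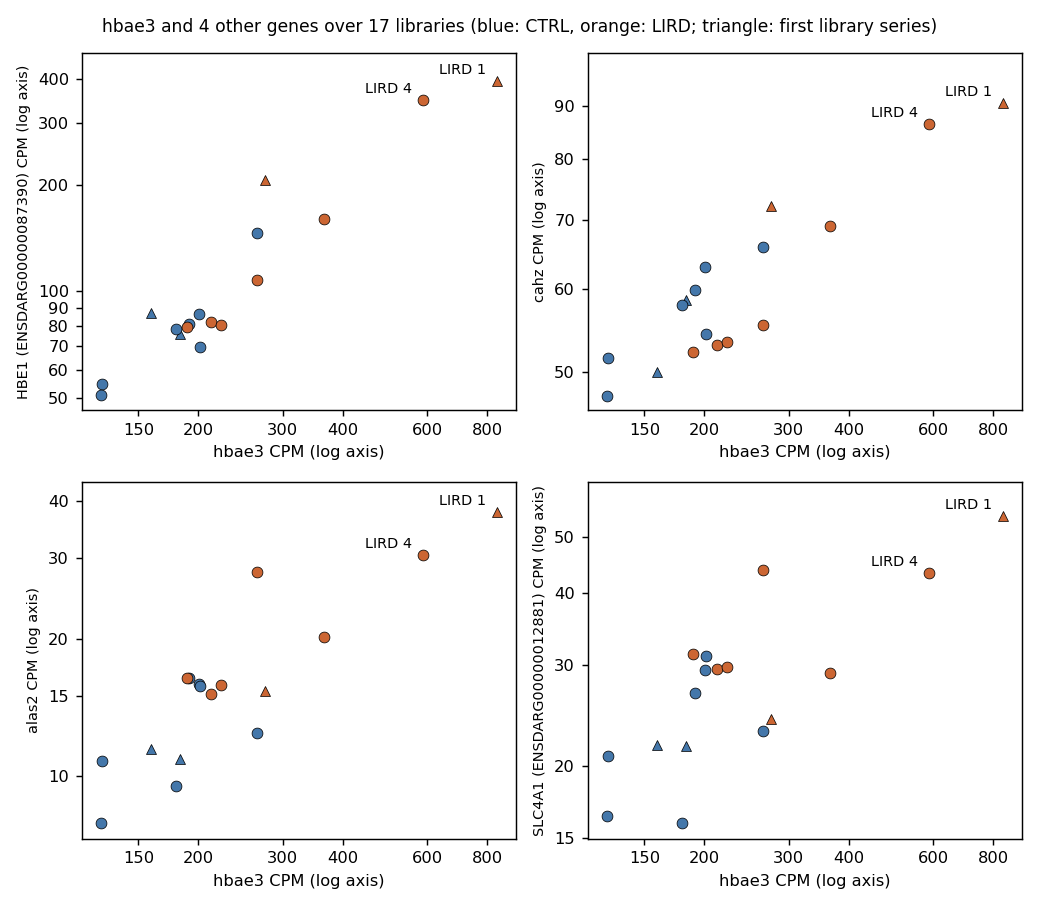
Level of hbae3 (x axis, CPM, log scale) against the levels of HBE1 ENSDARG00000087390, cahz, alas2 and SLC4A1 ENSDARG00000012881 (y axes, CPM, log scale) in 9 CTRL (blue) and 8 LIRD (orange) libraries, with 1 point per library and triangles for the first series. All 4 genes are highest in LIRD 1 (hbae3 838 CPM), and the SLC4A1 row is the loosest of the 4, with an r of 0.78.

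Genes of the red cell lineage and of heme synthesis were examined as a list, because hemoglobin in erythroid cells is made together with them. Of 46 rows in both lists, 0 were called by edgeR or limma-voom, each of which called 0.04% of all tested genes. Of the 46 rows, 7 had an unadjusted p under 0.05 (6 of them higher in LIRD), where 7.64% of all tested genes had one in either direction. DESeq2 called 1, alas2, beside 0.315% of its tested genes in either direction. The median log2 fold change of the 46 rows was 0.085, beside 0.017 over all genes tested, and 67.4% of them had a higher mean in LIRD, beside 53.8% over all genes. alas2 (ENSDARG00000038643) had 7.90, 11.5 and 16.4 CPM at the lowest, median and highest CTRL library and 15.2, 18.3 and 37.8 CPM in LIRD. Each LIRD library exceeded the CTRL median, and 5 exceeded the highest control. Its log2 fold change was 0.86 (SE 0.20; FDR = 0.18 in edgeR and 0.017 in DESeq2), a size like that of the hbae1 copies. SLC4A1 ENSDARG00000012881 had 22.99 ± 5.28 CPM in CTRL and 35.6 ± 10.3 CPM in LIRD, a log2 fold change of 0.63 (SE 0.17; FDR = 0.27), and the other SLC4A1 row had -0.19 (FDR = 0.70).

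Most of the other red cell genes named differed less, with PLEK2 as an exception in edgeR. Apart from cahz, gata1a, RHAG, klf1, EPOR and klf17, they were named for a small p. RHAG, klf1, EPOR and klf17 were chosen after their values were seen. Of all 33 erythroid rows, 20 were higher and 13 lower in LIRD (60.6% higher, beside 53.8% over all genes). Their median log2 fold change was 0.040. RHAG (0.080), klf1 (0.040), EPOR (-0.035) and klf17 (-0.20) were among the rows near or below 0. cahz had 56.5 ± 6.17 CPM in CTRL and 66.6 ± 15.6 CPM in LIRD, a log2 fold change of 0.24 (SE 0.12; FDR = 0.67), and only 4 of 8 LIRD libraries exceeded its CTRL median. Those 4 were LIRD 1, 2, 4 and 9, as for hbae3, and each exceeded every control. hemgn, an erythroid nuclear factor, had a log2 fold change of 0.38 (FDR = 0.63), and gata1a, the transcription factor that directs red cell formation, had 0.33 (FDR = 0.70) at 0.688 ± 0.223 and 0.867 ± 0.314 CPM. ALAD, an early enzyme of heme synthesis, had 0.36 (FDR = 0.60), nt5c2l1 had 0.34 (FDR = 0.52) and znfl2a had 0.52 (FDR = 0.67). ANK1 ENSDARG00000059093, an ankyrin of the membrane skeleton, had -0.30 (FDR = 0.63). PLEK2 had 1.23 (FDR = 0.60), a value that came from LIRD 9 alone (25.7 CPM, with 4.03 CPM as the next highest), and DESeq2 gave -0.013 for it.

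Summed over the 33 erythroid rows, CTRL libraries had 532 to 655 CPM and LIRD libraries 584 to 696 CPM, and the medians of 592 and 610.1 CPM were closer than those of hbae3. The part of cells outside blood in these sums was not tested. None of the 33 rows was at 0 in all libraries. Over the 15 rows of heme synthesis the sums were 253 to 393 CPM in CTRL and 274 to 463 CPM in LIRD, with a median log2 fold change of 0.18. Of these rows 0 were called by edgeR, beside 0.04% of all tested genes. At an unadjusted p under 0.05 there were 2 (alas2 and ALAD), beside 7.64% of all tested genes in either direction.

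Heme released from hemoglobin is broken down by heme oxygenase and biliverdin reductase. In the list of 11 rows of heme breakdown and sensing, 0 were called by edgeR, limma-voom or DESeq2, beside 0.04%, 0.04% and 0.315% of all genes. Of the 11 rows, 5 had an unadjusted p under 0.05, 4 of them higher in LIRD, beside the same 7.64% over all genes. HMOX1, the inducible heme oxygenase, had 26.8 ± 12.3 CPM in CTRL and 52.0 ± 26.6 CPM in LIRD, a log2 fold change of 0.96 (SE 0.33; FDR = 0.47). blvrb, a biliverdin reductase, had 15.2 ± 2.54 and 23.7 ± 9.81 CPM and a log2 fold change of 0.64 (SE 0.19; FDR = 0.35). hpxa, a hemopexin that binds free heme, had 9.26 ± 4.49 and 4.92 ± 3.77 CPM and a log2 fold change of -0.91 (FDR = 0.61), whereas the other hemopexin row, hpxb, had 8.71 ± 3.56 and 12.7 ± 8.48 CPM and a log2 fold change of 0.54 (FDR = 0.69). Over the libraries, blvrb had the highest r with hbae3 of the 11 rows (0.88), and HMOX1 had 0.23. Of the 11 rows, 8 had a positive and 3 a negative r, from -0.70 (bach1a) to 0.88, with a median of 0.34. These values are given as a description.

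Of 5 rows of globins made outside red cells, 0 were called by edgeR, limma-voom or DESeq2, beside 0.04%, 0.04% and 0.315% of all genes. At an unadjusted p under 0.05 in edgeR there were 0 as well, beside 7.64% of all tested genes. At these shares, 0 of 5 does not set the rows apart from other genes. NGB (neuroglobin, the globin of neurons) had 77.4 ± 8.70 CPM in CTRL and 81.6 ± 18.1 CPM in LIRD, a log2 fold change of 0.076 (SE 0.12), and the 5 rows lay between -0.094 and 0.076. Among 24 rows of the hypoxia response, 0 were called by edgeR, beside 0.04% of all tested genes. Of the 24 rows, 7 had an unadjusted p under 0.05 (3 higher and 4 lower, beside 7.64% over all genes). DESeq2 called 2, NDRG1 ENSDARG00000010420 higher and SLC2A1 ENSDARG00000001437 lower, beside 0.315% of its tested genes in either direction. The median log2 fold change of the 24 rows was -0.093. epoa, which encodes the hormone that drives red cell formation, had 1.31 ± 0.233 and 1.06 ± 0.210 CPM (log2 fold change -0.30, FDR = 0.63).

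Markers of other cells of blood and vessels were read beside the hemoglobin genes. All 9 leukocyte rows found of 12 names had a higher mean in LIRD, with a median log2 fold change of 0.49. Of these rows 5 had an unadjusted p under 0.05, beside 7.64% over all genes. By edgeR, limma-voom or DESeq2 0 were called, beside 0.04%, 0.04% and 0.315% of all genes. The summed level of the 9 rows was 69.6 to 101 CPM in CTRL and 67.8 to 201 CPM in LIRD, and mpx matched no row. Their r with hbae3 over the libraries was positive for 7 and negative for 2, from -0.22 (csf1ra) to 0.88 (CORO1A), with a median of 0.51. The 19 endothelial rows had summed levels of 314 to 349.7 CPM in CTRL and 302 to 365 CPM in LIRD. Their median log2 fold change was -0.0039, with 0 rows at an unadjusted p under 0.05, beside 7.64% over all genes. cdh5 had 46.8 ± 7.64 and 41.6 ± 11.3 CPM (log2 fold change -0.17, FDR = 0.72). The 10 thrombocyte rows had a median log2 fold change of 0.040, with 1 at an unadjusted p under 0.05, beside the same 7.64% over all genes. Their summed levels were 192 to 232 CPM in CTRL and 155 to 233 CPM in LIRD. The part of blood retained in the dissected retinae in the hemoglobin values was not tested.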

How the data were processed

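Reads were trimmed with Trimmomatic 0.39, aligned to GRCz11 with STAR (2.7.9a in the submitters' processing notes) and counted on exons with featureCounts (Subread 2.0.1) in strand-specific mode, and the authors deposited raw counts per gene without normalization. The sources name different versions of some tools. Whether reads or read pairs were counted is not given in the sources used here. Symbols were found for 23499 of the 25281 identifiers. The RefSeq table is of GRCz12tu and served for names and neighbours only; no sequence was used.

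From the counts, edgeR 4.0.16 (R 4.3.3) gave TMM factors, CPM and quasi-likelihood tests (filterByExpr, 22503 genes, robust dispersions, Benjamini-Hochberg FDR over all genes). The standard error is the size of the log2 fold change divided by the square root of F. The log2 CPM of the relations had a prior count of 2. Totals of 70932504 to 150347385 counts leave the spread between libraries, not counting error, as the limit for all but the sparse genes. Alternatives were DESeq2 1.42.0, limma-voom (limma 3.58.1), other normalizations and filters, library series as a covariate, each series alone, a replicate block, libraries left out and counts added up. Python 3.11.15 with pandas 2.3.3 and matplotlib 3.10.9 made the tables and plots. The scripts were tested on simulated data.

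The genes named are every hbae and hbbe row, every other hemoglobin row, the 8 genes with the smallest p among red cell and heme synthesis genes, the 8 genes most like hbae3 (mean over 1 CPM), and alas2, slc4a1a, cahz, gata1a, cdh5 and mpx; list members outside this rule were chosen after their values were seen, as were the HBE1 rows' shares. The members and lists were chosen with earlier results of these data known. In the study's methods, libraries that stood apart from their group in a PCA were left out beforehand. Whether these are the 6 labelled samples without a column is not given in the sources used here. The part of this choice in the overlap between conditions was not tested.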

Additional observations from a re-analysis of the deposited data

Results flagged for a closer look

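In 50 groups of libraries, 1 per gene and condition, the highest or lowest library was compared with the rest by Dixon's ratio of CPM values. For normally distributed values, chance alone would exceed its limit in about 1 in 20 groups. CPM without a log need not be normal, and some genes were picked for following hbae3, so this rate is only a rough guide. The limit was exceeded in 9 groups. In CTRL 10, hbae5 (3.04 CPM, next 1.75), HBE1 ENSDARG00000045143 (95.3 CPM, next 67.6), HBE1 ENSDARG00000087390 (146 CPM, next 86.8), HBE1 ENSDARG00000115405 (119 CPM, next 72.9) and c1ql1 (10.7 CPM, next 7.39) stood apart from the other 8 controls. These 5 values come from a single library and are not independent. In LIRD, nt5c2l1 in LIRD 1 (13.9 CPM, next 10.1), PLEK2 in LIRD 9 (25.7 CPM, next 4.03) and zgc:172053 in LIRD 4 (97.1 CPM, next 44.4) stood apart. Among controls, gata1a in CTRL 6 (1.22 CPM, next 0.768) did so too. LIRD 1 and LIRD 4 were not marked for hbae3 or the hbae1 copies. For hbae3 they had 838 and 588 CPM. The ratio uses the gap to the next library, which another high library narrows, so a missing mark does not show that they lay close to the rest.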

How the results depend on the processing

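Each log2 fold change of the 6 hbae genes tested kept its sign under all 12 alternatives and with each of 17 libraries left out. Under DESeq2, hbae1.2 (0.88), hbae1.3 (0.91) and hbae3 (1.02) were called, so that the number of embryonic hemoglobin genes called was 3. It was 0 under the other alternatives and with every library left out. Without single libraries the log2 fold changes ranged from 0.51 to 0.83 for hbae1.1, 0.67 to 0.97 for hbae1.2, 0.68 to 1.00 for hbae1.3, 0.74 to 1.12 for hbae3, 0.11 to 0.52 for hbae4 and 0.16 to 0.68 for hbae5. In the first library series alone (2 against 2), HBE1 ENSDARG00000087390 (1.90) and ENSDARG00000115405 (1.83) were called. In that fit 3891 of all 22618 genes tested were called. Over all genes the number called was 9, and it was 78 under DESeq2, 14 with at least 10 counts in every library, 17 with series as a covariate, 3891 in the first series alone, 4 in the second alone, 5 with near-identical libraries added up, 14 without CTRL 8, and 7 to 39 over single libraries left out (39 without LIRD 10). The replicate block gave 0 called in edgeR, with 1328 genes and 3 of the embryonic genes at an unadjusted p under 0.05. Libraries with the same replicate number (7 numbers) correlated at -0.56 to 0.42, 5 of them at 0.18 to 0.42 and 2 below 0, and not every library correlated best with its own number, so the numbers were not taken to pair the libraries. Under the replicate block hbae3 had 0.86 (FDR = 0.82), hbae1.1 0.63, hbae1.2 0.82, hbae1.3 0.82, hbae4 0.29 and hbae5 0.36. The r of hbae3 with hbaa1 was -0.069 in CTRL alone. The causes were not tested. For hbbe3, hbaa1 and hbaa2, most libraries had at most 3 counts, and no difference could be read at these counts.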
